A study of Gallus gallus with 14 samples.

Results

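PNRC1, LMO2, TSC22D4, CDC73 and NUP133 are chicken genes whose proteins act on transcription or, for NUP133, at the nuclear pore through which its products leave the nucleus. On the EST arrays they are represented by 6 of the 12844 clones. PNRC1 has clones ChEST358J1 and pat.pk0061.e6f, LMO2 has pat.pk0056.h5, TSC22D4 has pgn1c.pk003.e3, CDC73 has pat.pk0051.c3f and NUP133 has DT40subNB_10D5. The 6 clones were found by these names, which the study's supplementary list pairs with genes, in the clone column of the array files, where a trailing f was ignored. The study drew that list from the comparison of DKO-R with DKO-S on these arrays, so the values of that comparison describe the clones and are no independent evidence.

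RNA came from DKO-R, DKO-S and DT40 cells. DT40 is a chicken B cell line with its own clathrin genes intact. DKO-S was derived from DT40 and DKO-R from DKO-S. In both, the native clathrin heavy chain genes are disrupted and clathrin comes from a transgene under a Tet-Off promoter, which doxycycline (DOX) shuts off. In the usual medium with DOX, DKO-R cells survive and DKO-S cells typically die. Each is a single line, grown as cultures A (replicate 1) and B (replicate 2) with DOX and without it. The dose of DOX and its duration for the arrays are not given in the sources used here. The labels give 7 pairs of extracts, each hybridised on 2 arrays with Cy3 and Cy5 exchanged. In 6 pairs a culture with DOX was set against the same culture without it. The remaining pair put DKO-R beside DKO-S, both culture A without DOX (the direct arrays). Nothing states that cultures were grown independently, so p values measure the spread between these extracts. The files pair no clone with a gene. Clathrin and markers of B cells were therefore not checked here, nor were other subunits and partners of the 5 proteins.

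As background, PNRC1 is a proline-rich coactivator that binds nuclear receptors. LMO2 is made of LIM domains without DNA binding of its own and bridges transcription factors in blood cell progenitors. TSC22D4 belongs to the TSC22 domain family of leucine zipper proteins, which act as regulators of transcription. CDC73 (parafibromin) is a subunit of the Paf1 complex, which travels with RNA polymerase II during elongation. NUP133 is a scaffold nucleoporin of the Y-shaped Nup107-160 complex.

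Of the 14 arrays, 12 kept between 55.1 and 72.1% of spots at a confidence of 0.30 or more, the limit set in the methods. The pair of weak arrays, both of DKO-S, kept 2.13% (culture A, with DOX in Cy5) and 22.7% (culture B, with DOX in Cy3). All 6 clones were brighter than the 95th percentile of the spots named Blank in both channels on each of the 12 other arrays. NUP133 has 4 spots on each array and the other clones 2 each. The number of arrays limits the precision of every value below. A ratio of bulk RNA cannot tell less RNA per cell from fewer cells that hold it.

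The direct arrays ask how DKO-R and DKO-S differ while both make clathrin. On these 2 arrays the clones fell into 2 kinds. In the PNRC1 and NUP133 clones the ratio followed the extracts and was higher in DKO-R in both orientations. In LMO2, TSC22D4 and CDC73 it followed the dye, with Cy5 brighter whichever line was labelled with it. The sign of every DKO-R to DKO-S value needs caution, since the labels of the direct arrays and those of the DOX arrays disagree on its direction (given with the levels) and the arrays do not settle which is right. Were the labels of the DOX arrays the ones at fault, the DOX responses, dye means, levels and comparisons with DT40 printed for DKO-R and DKO-S would each belong to the other line.

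PNRC1 clone ChEST358J1 had a log2 ratio of DKO-R over DKO-S of 1.38 on the array where DKO-R carried Cy3 and 1.26 where it carried Cy5, which average 1.32 (2.496-fold). The other PNRC1 clone, pat.pk0061.e6f, had 1.09 and 1.17, a mean of 1.13 (2.189-fold). Both cDNAs of the gene therefore gave the same sign in both orientations, with single spots between 1.04 and 1.70. NUP133 had 1.04 and 1.06 over its 4 spots, a mean of 1.05 (2.073-fold), but its spots disagreed by printed block, as shown further on.

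LMO2 had -1.93 where DKO-R carried Cy3 and 1.94 where it carried Cy5, and these average 0.01. Before any normalisation the median LMO2 spot read 2300 in Cy3 (DKO-R) and 4393 in Cy5 (DKO-S) on the first of these arrays. On the other it read 5767 in Cy5 (DKO-R) and 3648 in Cy3 (DKO-S). The brighter channel was Cy5 each time, while the line in it changed. TSC22D4 had -2.20 and 2.12, with a mean of -0.04, and CDC73 had -1.03 and 1.28, with a mean of 0.12. For these 3 clones either orientation alone showed a change of 2-fold or more, and in opposite directions. limma with the residual spread of all pairs passed none of the 6 clones on the direct arrays at an adjusted p under 0.15, the false discovery rate of the methods, against 0.137% of the 5827 clones tested. A single pair of extracts stands behind these values, so its spread was taken from the DOX pairs. For ChEST358J1, LMO2 and TSC22D4 that spread includes the DKO-S pairs with weak arrays. The SE on the direct arrays was 0.74 for ChEST358J1, against 0.25 for pat.pk0061.e6f.

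**Figure D1:**
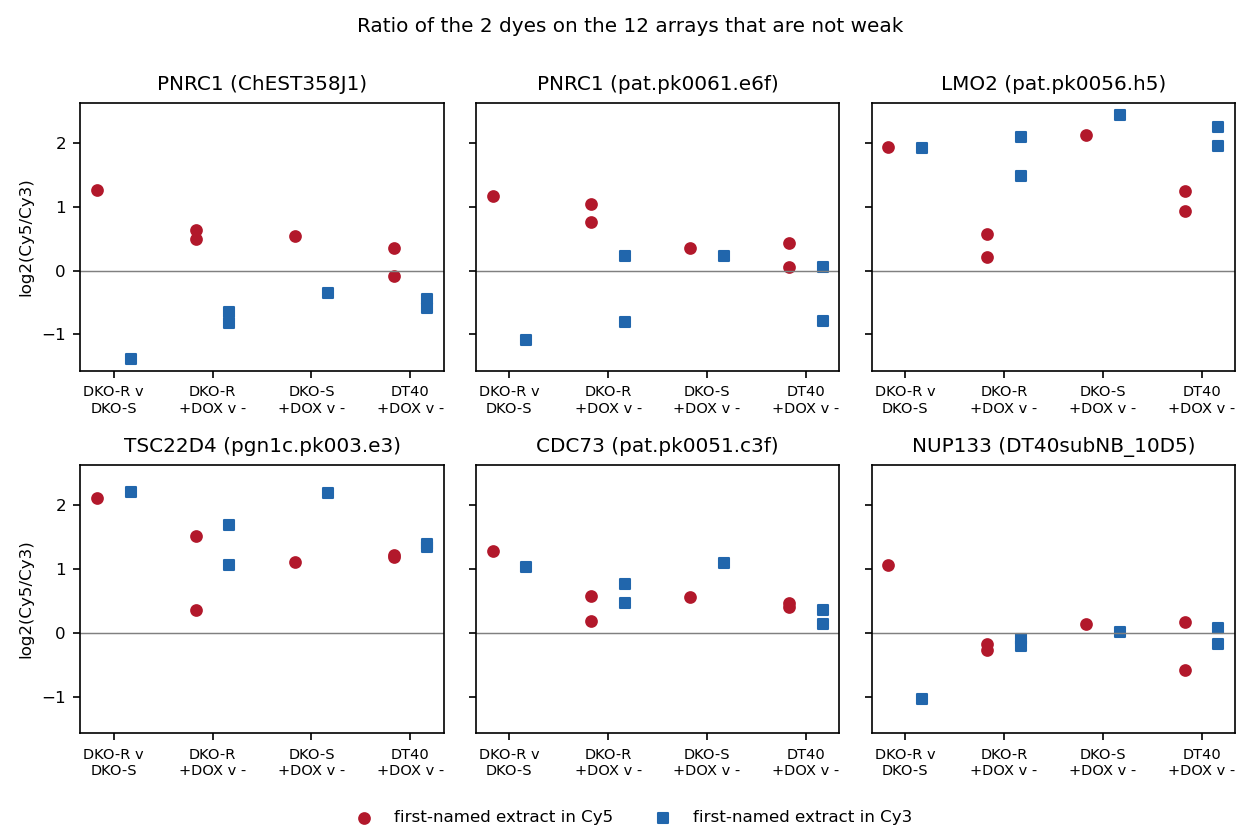
Log2(Cy5/Cy3), centred on each array's median, of the 6 clones on the 12 arrays that are not weak, by comparison (x axis). Circles mark arrays with the first-named extract in Cy5 and squares those with it in Cy3. On the direct arrays (leftmost) PNRC1 and NUP133 change sign with the dye exchange, while LMO2 (1.94 and 1.93), TSC22D4 and CDC73 stay above 0.

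The DOX arrays of DKO-R and DT40 allow the dye to be tested where both channels hold the same line. Whether they entered the study's list is not given in the sources used here, and the DKO-R culture A extract without DOX is also on the direct arrays. The mean log2(Cy5/Cy3) of both orientations is what is left once the extracts cancel. LMO2, TSC22D4 and CDC73 were brighter in Cy5 there, and the PNRC1 and NUP133 clones did not pass the test.

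LMO2 had mean log2(Cy5/Cy3) of 1.03 and 1.16 in the DKO-R pairs and 1.59 and 1.60 in the DT40 pairs. All 4 pairs were above 0, with a mean of 1.35 ± 0.29 (SD, n = 4; adjusted p = 3.2e-05 in limma). This placed LMO2 at rank 30 of the 7896 clones tested. TSC22D4 had 1.28 and 1.03 in the DKO-R pairs and 1.27 and 1.30 in the DT40 pairs, a mean of 1.22 ± 0.13 (SD, n = 4; adjusted p = 1.6e-05 in limma) and rank 40. CDC73 was weaker, with 0.53 and 0.47 in the DKO-R pairs and 0.41 and 0.28 in the DT40 pairs, a mean of 0.42 ± 0.11 (SD, n = 4; adjusted p = 0.0263 in limma). The pairs of the lines did not overlap for LMO2, where DT40 was the higher, nor for CDC73, where DKO-R was (0.47 against 0.41 at the nearest). With 2 pairs a line such a gap is weak evidence, and its share over all clones was not counted.

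The call of CDC73 was lost in the deposited log2 table (0.28, adjusted p = 0.113), without DKO-R replicate 1 (adjusted p = 0.173), without DKO-R replicate 2 (0.118) and without DT40 replicate 1 (0.0829). In the PNRC1 and NUP133 clones the same means were -0.14 ± 0.15 (ChEST358J1), 0.12 ± 0.36 (pat.pk0061.e6f) and -0.16 ± 0.11 (NUP133; SD, n = 4 each). In all, 3 of the 6 clones passed an adjusted p under 0.05, against 3.84% of all clones tested.

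Cy5 exceeded Cy3 by more on the direct arrays than on these DOX arrays for all 3 clones. The direct means were 1.93 for LMO2 (rank 59 of 7238 clones), 2.16 for TSC22D4 (rank 42) and 1.16 for CDC73 (rank 186). On the pair of DKO-S arrays that are not weak, from cultures A and B in opposite orientations, they were 2.28 for LMO2, 1.65 for TSC22D4 and 0.83 for CDC73. The excess of Cy5 thus had no single size across arrays, and whether these sizes differ beyond error was not tested. The study's list holds 6 other clones in its transcription group, for DDIT3, XBP1, SNAPC5, CHTOP, NFKBIE and THUMPD2. On the direct arrays, averaged over all spots, DDIT3, a stress-induced transcription factor, was the only one of them whose sign did not depend on the orientation (DKO-R over DKO-S 1.03 and 1.29). The other 5 had direct means of log2(Cy5/Cy3) between 1.63 (XBP1) and 3.44 (THUMPD2), and all 5 passed the dye test on the DOX arrays. DDIT3 could not be tested on the DOX arrays, because none of its DKO-R pairs was kept. The direct means of XBP1 and CHTOP describe neither of their printed blocks. XBP1 spots had 2.90 to 3.13 in block 8 and -0.42 to 0.95 in block 37. In block 37 its DKO-R over DKO-S was below 0 in both orientations (-0.95 to -0.40). CHTOP spots had 3.08 to 3.60 in block 1 and 0.12 to 0.51 in block 38. The dye test of these clones on the DOX arrays also averages unlike blocks. Log2(Cy5/Cy3) was higher in block 8 than in block 37, and in block 1 than in block 38, on nearly all DKO-R and DT40 DOX arrays. The exception was DKO-R culture B with DOX in Cy5, where the blocks overlapped.

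**Figure D2:**
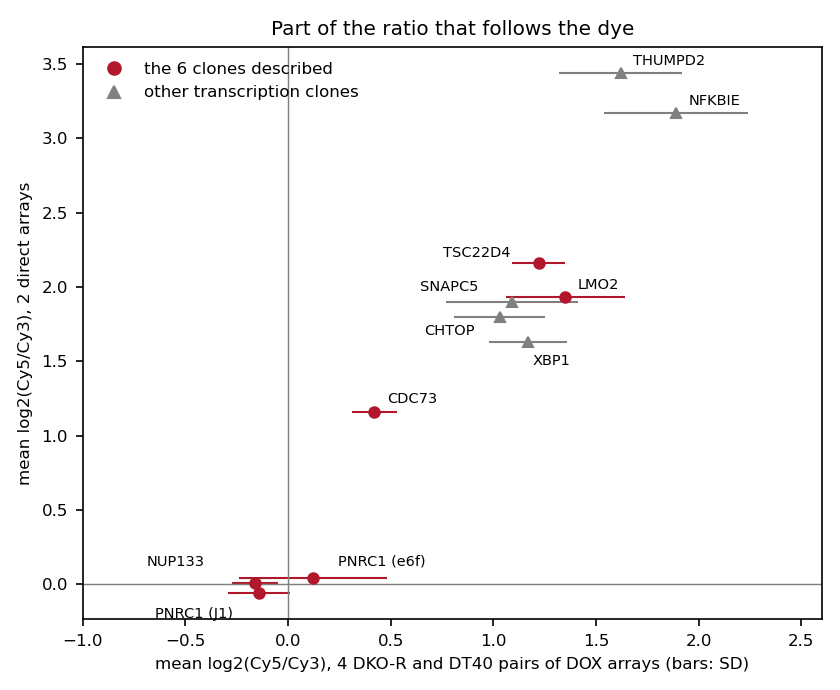
Mean log2(Cy5/Cy3) of both orientations on the direct arrays (y axis) against that on the 4 pairs of DKO-R and DT40 DOX arrays (x axis, mean with SD bars). Circles are the 6 clones described (J1 is ChEST358J1 and e6f is pat.pk0061.e6f) and triangles the other transcription clones, without DDIT3. PNRC1 and NUP133 lie near 0 on both axes, and CDC73 (0.42 and 1.16), LMO2 and TSC22D4 lie above 0 on both.

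The DOX arrays also ask what shutting off clathrin does in each line, with DT40, which has no Tet-Off clathrin, as the control for DOX itself. Averaging both orientations removes a dye effect that is equal on both. At the confidence limit of 0.30 the PNRC1 clones had higher and LMO2 had lower values with DOX in both DKO-R and DT40. TSC22D4, CDC73 and NUP133 had no common sign. None of these responses passed the test.

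ChEST358J1 had log2 ratios of cells with DOX to cells without it of 0.64 and 0.66 in DKO-R cultures A and B, and of 0.25 and 0.40 in DT40 cultures A and B. Both DKO-R values lay above both DT40 values, a gap whose share over all clones was not counted. The mean was 0.65 ± 0.02 in DKO-R (SD, n = 2; adjusted p = 0.758 in limma) and 0.33 ± 0.10 in DT40 (SD, n = 2; adjusted p = 0.997). The spread of this fit also took in the DKO-S pairs of the clone (-2.19 and 0.88), which include weak arrays. Its SE was 0.52, against 0.18 for pat.pk0061.e6f, so its adjusted p values also reflect those arrays. The other PNRC1 clone, pat.pk0061.e6f, had 0.41 and 0.78 in DKO-R cultures A and B, and 0.01 and 0.62 in DT40. Its lines overlapped, with means of 0.59 ± 0.26 in DKO-R (adjusted p = 0.595) and 0.31 ± 0.43 in DT40 (adjusted p = 0.942; SD, n = 2 each). Its culture A pair of DKO-R rested on arrays that disagreed, at -0.23 with DOX in Cy3 and 1.05 with DOX in Cy5, and 1 of the 2 spots on the array with DOX in Cy5 had a confidence of 0.31. Likewise, on the array of DT40 culture B with DOX in Cy5 the spots of ChEST358J1 were 1.47 (confidence 0.41) and -0.77 (confidence 0.86). With spots at a confidence of 0.60 or more alone, that pair was -0.15 and the DT40 mean 0.05, and the culture A pair of DKO-R was -0.01 for pat.pk0061.e6f. Both PNRC1 clones were thus above 0 in 4 of 4 pairs at a confidence of 0.30, with DT40 culture A of pat.pk0061.e6f at only 0.01. At 0.60, 1 pair of each was below 0. For pat.pk0061.e6f DKO-R culture B was not kept at 0.60, so no DKO-R pair above 0 was left. Its DT40 pairs were then 0.01 and 0.62 in cultures A and B. The PNRC1 clones share a gene and are not independent.

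LMO2 had -0.45 and -0.93 in DKO-R cultures A and B, and -0.66 and -0.35 in DT40. All 4 pairs were below 0, as were the 3 left at a confidence of 0.60, and the lines overlapped. On single arrays the sign of LMO2 followed the dye, at -2.25 to -1.48 with DOX in Cy3 and 0.22 to 1.25 with DOX in Cy5. Each pair's value thus holds any difference in dye effect between its 2 arrays. The mean was -0.69 ± 0.34 in DKO-R (adjusted p = 0.595 in limma) and -0.51 ± 0.22 in DT40 (adjusted p = 0.801; SD, n = 2 each). Over both lines the mean response, a contrast added after these values were seen, was -0.60 ± 0.26 for LMO2, 0.49 ± 0.19 for ChEST358J1 and 0.45 ± 0.33 for pat.pk0061.e6f (SD, n = 4 each), with adjusted p of 0.498, 0.816 and 0.506. The 5 other transcription clones that passed the dye test also had mean responses below 0, from -0.19 (CHTOP) to -0.84 (THUMPD2). In each of them 3 of 4 pairs were below 0. For XBP1 and CHTOP these means average 2 printed blocks that differed, and they were not split by block. On the DKO-R culture B array with DOX in Cy3, CHTOP spots had -2.55 and -3.14 in block 1 but 0.43 and 0.73 in block 38. XBP1 spots had -2.82 and -3.87 in block 8 but -0.20 and 0.39 in block 37. Whether unequal dye effects account for these values was not tested. The difference of DKO-R from DT40 was -0.19 for LMO2 (adjusted p = 0.932), 0.32 for ChEST358J1 (0.951) and 0.28 for pat.pk0061.e6f (0.886).

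TSC22D4 had 0.22 and -0.66 in DKO-R cultures A and B, and -0.08 in both DT40 cultures. Its DKO-R cultures thus lay on either side of 0. CDC73 had 0.05 and -0.28 in DKO-R and 0.05 and 0.14 in DT40, and NUP133 had 0.02 and -0.09 in DKO-R and 0.18 and -0.33 in DT40. Both DT40 values of CDC73 were above 0, while its DKO-R values, and those of NUP133 in each line, lay on either side of 0. Neither clone had a gap between the lines.

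In DKO-S the weak arrays left pairs with both orientations for few clones, 3 of the 6 in both cultures. ChEST358J1 had -2.19 and 0.88 in cultures A and B, TSC22D4 had -1.29 and 0.19, and LMO2 had -0.88 and 0.08. Culture A lay far below culture B in each, and culture A includes the array on which 2.13% of spots were kept. On the pair of DKO-S arrays that are not weak, which take culture A in one orientation and culture B in the other, the mean was 0.45 for ChEST358J1, 0.07 for pat.pk0061.e6f, -0.16 for LMO2, -0.54 for TSC22D4, -0.26 for CDC73 and 0.07 for NUP133. Of all 7934 clones measured on both arrays, the 5th percentile was -0.38 and the 95th was 0.29, so ChEST358J1 lay above this range and TSC22D4 below it. TSC22D4 followed the dye here, at -2.19 with DOX in Cy3 (culture A) and 1.11 with DOX in Cy5 (culture B). Its mean thus holds any difference in dye effect between these arrays. Cultures and orientations cannot be told apart on these arrays, and no test was made.

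Of the 6 clones none passed an adjusted p under 0.05 for DOX in DKO-R (0% of 6489 clones tested, with 526 of them at an unadjusted p under 0.05), in DT40 (0% of 6488, with 392) or in the mean of both lines (0% of 6484, with 481), nor for the difference of DKO-R from DT40 (0% of 6484, with 327). At an unadjusted p under 0.05, 2 of the 6 clones stood in DKO-R (pat.pk0061.e6f and LMO2) and 1 in DT40 (LMO2). In DKO-S none of the 3 clones tested passed, against 12.4% of the 169 clones tested. The median response of the 6 clones was -0.08 in DKO-R and 0.01 in DT40, beside 0.01 over all clones tested in each line.

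**Figure D3:**
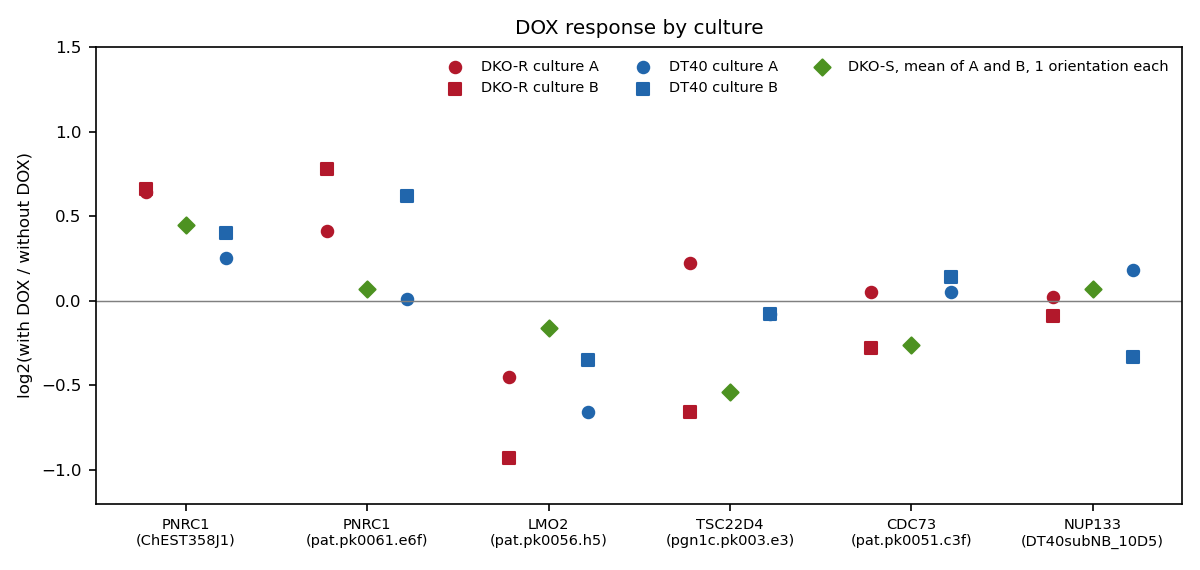
Log2 ratio of cells with DOX to cells without it (y axis) for each clone (x axis), as the mean of both dye orientations. Circles are culture A and squares culture B of DKO-R (left in each clone) and DT40 (right), and diamonds the mean of the DKO-S arrays that are not weak, 1 orientation of each culture. The PNRC1 clones are above 0 and LMO2 below 0 in all 4 pairs of DKO-R and DT40. At a confidence of 0.60, however, DT40 culture B of ChEST358J1 (-0.15) and DKO-R culture A of pat.pk0061.e6f (-0.01) are below 0. DKO-R culture B of pat.pk0061.e6f is not kept at 0.60.

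Levels in single extracts were taken from the separate channels of the DOX arrays, after each clone's dye effect had been subtracted, as log2 of normalised intensity. The lines share no DOX array, so a difference between lines is also one between sets of arrays. Within a line, the extracts of a culture with and without DOX are the channels of the same arrays. The fit of the levels had no term for this and took all extracts as independent. Its p values, and the shares of clones past the limit, may thus be too favourable. No clone's level is set against that of another, because the intensity of a spot also depends on its cDNA. With 2 extracts in a group, levels that do not overlap are weak evidence. The share of clones without overlap was not counted over the whole array. Over whole clones, the largest difference of DKO-R from DKO-S among the 6 was in the PNRC1 clone pat.pk0061.e6f, whose DKO-R extracts without DOX were below those of DKO-S. The block 10 spots of NUP133 taken alone differed by more, at -1.61 ± 0.34 without DOX and -1.67 ± 0.34 with DOX (SE).

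Without DOX, pat.pk0061.e6f had levels of 12.17 and 10.95 in DKO-R cultures A and B, 13.17 and 12.90 in DKO-S and 12.69 and 12.24 in DT40. With DOX it had 12.56 and 11.74 in DKO-R, 13.13 and 13.03 in DKO-S and 12.67 and 12.86 in DT40. Every DKO-R extract lay below every DKO-S extract, a gap whose share over all clones was not counted. DKO-R culture B was the lowest under both conditions. The difference of DKO-R from DKO-S was -1.47 ± 0.38 without DOX (SE; adjusted p = 0.113 in limma, past the limit of 0.15) and -0.93 ± 0.38 with DOX (adjusted p = 0.27). The call was lost without DKO-R replicate 2 (-0.86), without DT40 replicate 1 and without DT40 replicate 2. It was also lost with the weak arrays included (-1.14, adjusted p = 0.333 in limma) and with the direct arrays included (-0.89, 0.8). The direct arrays had the opposite sign for this clone (1.13), so including them was bound to shrink the difference and is no check of it.

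The other PNRC1 clone, ChEST358J1, had 11.88 and 11.75 in DKO-R without DOX, 12.12 and 12.70 in DKO-S and 12.02 and 12.60 in DT40. DKO-R lay below the other lines, as with the first clone. With DOX its lines overlapped, at 12.49 and 12.43 in DKO-R, 12.32 and 13.28 in DKO-S and 12.24 and 12.93 in DT40. Its difference of DKO-R from DKO-S was -0.59 ± 0.36 without DOX (SE; adjusted p = 0.497). The PNRC1 clones had a Pearson's r of 0.88 for log2(Cy5/Cy3) over the 12 arrays that are not weak. These include the direct arrays, whose comparison gave the study its list, so this r is partly fixed by that choice. For the level over the 12 extracts r was 0.49. Both are given as a description, since arrays and extracts share cultures.

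LMO2 had levels of 10.89 and 11.81 in DKO-R cultures A and B without DOX, 12.07 and 10.93 in DKO-S and 10.95 and 10.82 in DT40. With DOX it had 10.47 and 10.89 in DKO-R, 11.01 and 11.66 in DKO-S and 10.28 and 10.47 in DT40. Each DKO-S extract was measured in 1 dye here, and the pair read in Cy5 (culture A without DOX and culture B with DOX) was higher than the pair read in Cy3. The dye effect subtracted came from DKO-R and DT40 arrays, where it was smaller than on the DKO-S arrays.

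TSC22D4 had 11.43 and 12.01 in DKO-R without DOX, 12.26 and 11.16 in DKO-S and 11.45 and 11.25 in DT40, so that DKO-R lay within the range of DKO-S. With DOX it had 11.65 and 11.35 in DKO-R, 11.32 and 11.05 in DKO-S and 11.33 and 11.20 in DT40. DKO-R was then above DKO-S without overlap, by 0.31 ± 0.34 on average (SE; adjusted p = 0.733 in limma). The limit given for LMO2 also holds for the DKO-S levels of CDC73, with a dye effect of 0.42 on the DKO-R and DT40 arrays against 0.83 on the DKO-S arrays. For TSC22D4 log2(Cy5/Cy3) on the DKO-S arrays was 2.19 in culture A and 1.11 in culture B. Its mean on the DKO-R and DT40 arrays was 1.22. Each of these DKO-S values comes from 1 orientation and so also holds any DOX response of its culture. Whether the limit holds for TSC22D4 in either culture thus cannot be told. The sizes given here come from median-centred ratios, while the effect subtracted was taken after loess within arrays. CDC73 had 10.94 and 11.08 in DKO-R without DOX, 11.66 and 11.26 in DKO-S and 11.42 and 11.04 in DT40. Its DKO-R extracts were below both DKO-S extracts, by 0.45 ± 0.25 on average (SE; adjusted p = 0.465 in limma). NUP133, over its 4 spots, had 11.08 and 10.63 in DKO-R without DOX, 11.82 and 11.15 in DKO-S and 10.80 and 11.51 in DT40. Its difference of DKO-R from DKO-S was -0.63 ± 0.33 (SE; adjusted p = 0.42 in limma). With DOX it had 11.09 and 10.56 in DKO-R, 11.69 and 11.42 in DKO-S and 10.97 and 11.20 in DT40. The difference of DKO-R from DKO-S was then -0.72 ± 0.33 (SE; adjusted p = 0.321 in limma).

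One of the 6 clones passed for DKO-R against DKO-S without DOX, against 3.02% of the 8480 clones tested. None passed for DKO-R against DKO-S with DOX (6.05% of all clones), for DKO-R against DT40 without DOX (21% of all clones) or for DKO-S against DT40 without DOX (18.9% of all clones). The PNRC1 and NUP133 clones were higher in DKO-R on the direct arrays and had lower levels in DKO-R on the DOX arrays. The same held widely. Of 29 clones at least 2-fold apart on the direct arrays with 1 sign in both orientations, 27 had the opposite sign between DKO-R and DKO-S without DOX on the DOX arrays. Which direction is right cannot be told from these arrays, other measurements of the study are not used here, and the cause was not tested.

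**Figure D4:**
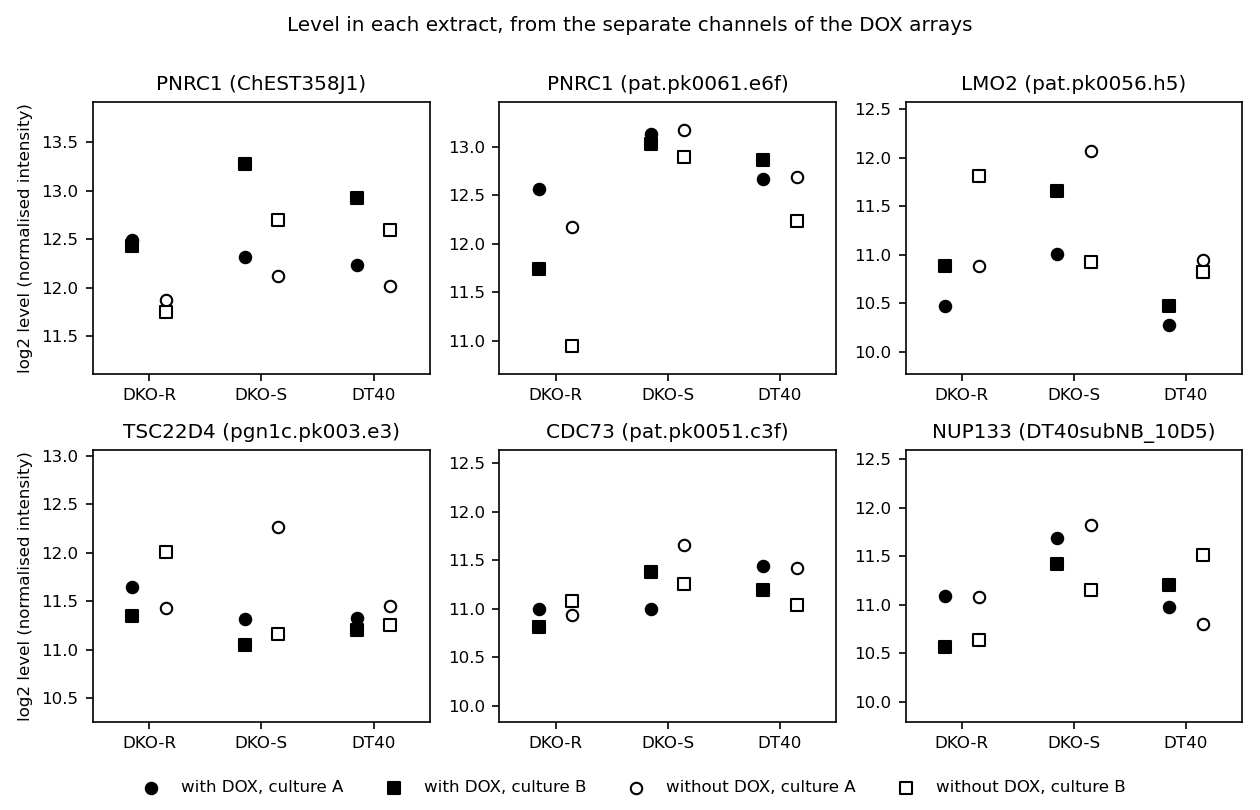
Log2 level of each clone in each extract, from the separate channels of the DOX arrays without the weak ones. Filled points are cells with DOX and open points cells without it, circles culture A and squares culture B. All panels span the same range of log2 units around their own centre. In pat.pk0061.e6f every DKO-R extract (10.95 to 12.56) is below every DKO-S extract (12.90 to 13.17), a gap whose share over all clones was not counted.

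The NUP133 clone was printed as 2 spots in block 10 and 2 spots in block 26 of the array, and the blocks gave different answers. On the direct arrays the log2 ratios of DKO-R over DKO-S of the block 10 spots were 2.03 and 1.65 where DKO-R carried Cy3, and 2.36 and 2.17 where it carried Cy5. Those of block 26 were -0.23 and 0.73 for DKO-R labelled with Cy3, and 0.01 and -0.31 for DKO-R labelled with Cy5. The mean was 2.05 (4.154-fold) in block 10 and 0.05 (1.034-fold) in block 26, so that the mean of 1.05 over 4 spots describes neither.

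This difference of 2.01 was the largest among 135 clones, whose median was 0.26, and 3 of them differed by more than 1. These are the clones with 2 spots in each of 2 blocks and a value kept from both blocks on both direct arrays. The split into blocks was made after the spots were seen to differ, so no test is given. On the DOX arrays, block 10 had levels of 10.81 and 10.45 in DKO-R without DOX, 12.20 and 12.29 in DKO-S and 10.05 and 11.13 in DT40. Block 26 had 11.35 and 10.73 in DKO-R, 11.44 and 10.02 in DKO-S and 11.55 and 11.88 in DT40. DKO-S was thus the highest line in block 10, and in block 26 it overlapped DKO-R and lay below DT40.

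With DOX the block 10 spots were again highest in DKO-S and overlapped between DKO-R and DT40, at 10.92 and 10.44 in DKO-R, 12.21 and 12.47 in DKO-S and 10.17 and 10.53 in DT40. Over the 12 extracts, the block 10 level was most like the clone of the immunoglobulin J chain (Pearson's r = 0.91), which joins polymeric immunoglobulin in secreting B cells, and then that of SRP54 (0.81), a subunit of the signal recognition particle. The block 26 level was most like the clones of ITGB5 (0.66), an integrin subunit, and CHTOP (0.57). These were the highest among the named clones of the study's list, and r over extracts that share arrays is a description. Whether both blocks hold the same cDNA was not tested.

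**Figure D5:**
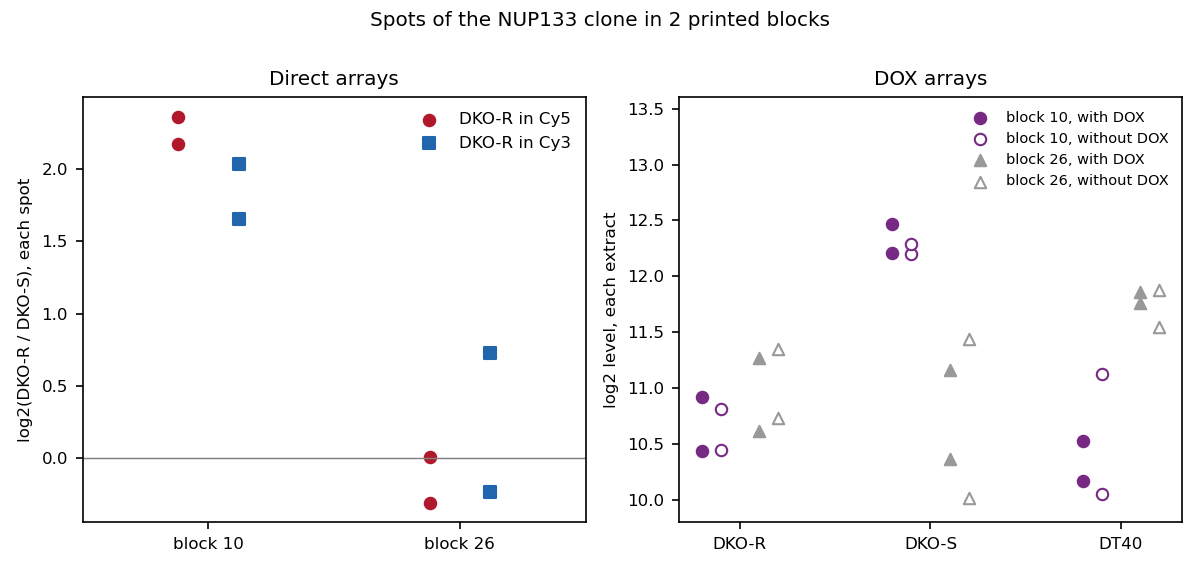
Left, log2 ratio of DKO-R to DKO-S of each NUP133 spot on the direct arrays, by printed block and by the dye of DKO-R. Right, log2 level of each block in each extract of the DOX arrays (filled with DOX, open without). Block 10 spots lie between 1.65 and 2.36 on the left and are highest in DKO-S on the right, while block 26 spots lie between -0.31 and 0.73.

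Among the 45 named clones of the study's list that were measured in all 12 extracts, the levels most like LMO2 were those of DUSP1 (Pearson's r = 0.90), a dual specificity phosphatase of MAP kinases, and CCL17 (0.89), a chemokine. TSC22D4 was most like MAP4K4 and AP1B1, both at 0.90. For CDC73 the highest values were 0.60, with a testhymin homologue, and 0.55, with pat.pk0061.e6f. The PNRC1 clone pat.pk0061.e6f was most like the NUP133 clone (0.72) and the testhymin homologue (0.67), and ChEST358J1 had no r above 0.49. The NUP133 clone as a whole was most like pat.pk0061.e6f (0.72) and the immunoglobulin J chain clone (0.70). LMO2 and TSC22D4 thus had closer partners than the other clones taken whole. They also had the larger dye effects, while CDC73, which passed the dye test too, reached 0.60. Whether dye effects and closeness are linked was not tested. The block 10 spots of NUP133 alone reached 0.91, with the immunoglobulin J chain clone. All these levels share arrays and dyes.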

How the data were processed

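RNA from 12 extracts of the 3 lines was labelled with both dyes and hybridised on 14 EST arrays of 27648 spots, of which 26227 are not controls. The labels and the methods give different amounts of RNA. After scanning, the authors deposited BlueFuse output (version 1.1), which per the file headers holds the unnormalised intensity of every spot in each channel and a confidence, a fraction. Channel 1 is Cy3 and channel 2 is Cy5 by the labels. The authors also deposited a table of log2 values of Cy5 over Cy3, used as an alternative only. Its values correlated with clone means of the intensities at 0.94 to 0.98 over the arrays, and its scaling is not given in the sources used here. The spots named BLANK in capitals were bright and were not used as blanks.

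Spots under a confidence of 0.30 were dropped, each array's log2(Cy5/Cy3) was set to a median of 0, which follows the global normalisation of the methods, and a clone's spots were averaged. Both orientations of a pair of extracts were required and averaged. With lmFit and eBayes of limma 3.58.1 (R 4.3.3), 4 means were fitted to the 7 pairs, with at least 2 residual degrees of freedom (prior 6.11), and the dye effect as the mean of the 4 DKO-R and DT40 pairs. A DOX response required every pair of its line. Levels came from the separate channels of the DOX arrays without the weak pair, after loess (span 0.3) within and Aquantile between arrays and subtraction of each clone's dye effect over DKO-R and DT40, fitted as 6 groups of 2 extracts. P values were adjusted by Benjamini-Hochberg over all clones tested, with limits of 0.05 for DOX and dye and 0.15 between lines. Fits were tested on simulated data with independent noise, no weak arrays and, for the levels, no dye effect. Such data cannot show what shared arrays do to the fit of the levels.

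The members, the other transcription clones and the tests were chosen with earlier results of these data known. All 6 members are named, and for each the 2 named clones with the most similar levels. All 5 gene symbols are in the RefSeq table of GRCg7b, but no sequence of the clones was used here. The alternatives were loess or printed block centring, no confidence filter or 0.60, omission of the 25% dimmest clones, the deposited table, each direct array alone, median scaling, no dye subtraction, weak or direct arrays included, culture as a replicate block, other limits and leaving out each culture. Culture letters did not pair the extracts across lines, since same-letter deviations correlated between -0.07 and 0.03.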

Additional observations from a re-analysis of the deposited data

How the results depend on the processing

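Of the 6 clones, the number past the limit for DKO-R over DKO-S on the direct arrays was 0, and it was 1 with centring by printed block, 2 at a confidence of 0.60, 5 with DKO-R in Cy3 alone, 5 with DKO-R in Cy5 alone and 0 to 2 when a culture was left out. For the levels of DKO-R against DKO-S without DOX it was 1, and it was 0 with the weak arrays, 0 with the direct arrays, 0 at a limit of 0.05 and 0 to 1 without a culture. With DOX it was 0, and it was 2 at a confidence of 0.60 and 0 to 1 without a culture. For DKO-R against DT40 it was 0, and it was 1 with median scaling, 1 at a confidence of 0.60, 1 with culture as a replicate block and 0 to 1 without a culture. In the other level comparisons the replicate block left the number of the 6 clones past the limit as it was. For DKO-S against DT40 it was 0, and 0 to 2 without a culture (2 without DKO-S replicate 2). For DOX in DKO-S it was 0, and it was 1 with no confidence filter and 0 to 3 without a culture (3 without DKO-S replicate 2), where the lone DKO-S pair was assumed to vary like the others. The clones past the limit on either direct array alone include LMO2, TSC22D4 and CDC73, with opposite signs on the 2 arrays. They had -1.93, -2.20 and -1.03 with DKO-R in Cy3, and 1.94, 2.12 and 1.28 with DKO-R in Cy5. Including the direct arrays was no check of the levels, here or over all clones, since their labels disagree in direction with the DOX arrays. The causes of the changes in number were not tested.

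Signs that changed all belong to values that had not passed a test. On the direct arrays the mean of LMO2 (0.01) was -0.01 with loess, -0.10 with block centring, -0.03 in the deposited table and -1.93 with DKO-R in Cy3 alone. TSC22D4 (-0.04) was 2.12 with DKO-R in Cy5 alone and CDC73 (0.12) was -1.03 with DKO-R in Cy3 alone. With block centring the DOX response of DT40 was -0.11 for CDC73 (against 0.10) and 0.04 for NUP133 (against -0.08), and in the deposited table that of DKO-S was 0.19 for LMO2 (against -0.40). Between DKO-R and DKO-S without DOX, LMO2 (-0.15) was 0.18 with the direct arrays, and TSC22D4 (0.01) was -0.02 with median scaling, -0.13 with no confidence filter and -0.02 at a confidence of 0.60. Leaving out each culture moved that difference between -0.71 and 0.42 for LMO2 and between -0.54 and 0.56 for TSC22D4. It moved the DOX response of DKO-R between -0.66 and 0.22 for TSC22D4, between -0.28 and 0.05 for CDC73 and between -0.09 and 0.02 for NUP133, and that of DT40 between -0.33 and 0.18 for NUP133. In DKO-S it moved between -2.19 and 0.88 for ChEST358J1, -0.88 and 0.08 for LMO2, and -1.29 and 0.19 for TSC22D4. The difference of DKO-R from DT40 in that response lay between -0.02 and 0.59 for pat.pk0061.e6f and between -0.43 and 0.05 for LMO2, and the dye effect of pat.pk0061.e6f between -0.05 and 0.22.

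Numbers over all clones depended on the settings more. Past the limit for DKO-R over DKO-S on the direct arrays were 8 clones, with 0 under no confidence filter and 1388 with DKO-R in Cy5 alone. For DOX in DKO-S there were 21 (0 at a confidence of 0.60, 3647 with no filter). Without DT40 replicate 2 there were 3 in DT40, 9 for the mean of both lines and 2 for the difference of DKO-R from DT40, each 0 otherwise. The dye effect had 303 (135 without DKO-R replicate 1, 702 with no filter). Levels of DKO-R and DKO-S had 256 without DOX (2 with the direct arrays, 1147 without DKO-S replicate 1) and 513 with DOX (92 without DKO-R replicate 1, 1546 without DKO-S replicate 1). DKO-R against DT40 had 1779 (403 without DT40 replicate 1, 3328 with no filter) and DKO-S against DT40 1603 (346 without DT40 replicate 2, 3010 with no filter). The split of NUP133 by block, the single pairs at a confidence of 0.60, the mean of the DOX responses and the values of the DKO-S arrays that are not weak were chosen after seeing the data. With 2 cultures a line, and weak DKO-S arrays, an effect in 1 line that missed its limit may still be present.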
